A study of Rattus norvegicus with 20 samples.

Results

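The calpain and caspase genes described here are 8 rows of the gene count table of rat gastrocnemius muscle, chosen by symbol: the calpains Capn1, Capn2 and Capn3, the small calpain subunit Capns1, the calpain inhibitor Cast, and the caspases Casp8, Casp9 and Casp12. They are 8 of 32495 named rows. All samples came from female Fischer 344 rats carrying a transplanted Ward colorectal carcinoma that had grown for 2 weeks before treatment began. TUMOUR STD rats ate a standard diet and had no chemotherapy (5 libraries). CHEMO STD rats ate the same diet and received 2 cycles of CPT-11 (irinotecan) followed a day later by 5-fluorouracil at 50 mg/kg (7 libraries). CHEMO FO rats had the same chemotherapy and were moved to a diet with fish oil, the source of EPA and DHA, on the day it began (8 libraries). Muscle of the 2 chemotherapy groups was taken 7 days after the second cycle. The methods name no separate day for TUMOUR STD. No group was free of tumour, so every comparison is within the tumour-bearing state, and the model is a single transplanted tumour in a single strain and sex. CHEMO STD versus TUMOUR STD addresses the chemotherapy effect, CHEMO FO versus CHEMO STD addresses the diet effect, and CHEMO FO versus TUMOUR STD gives both together.

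Calpains are cysteine proteases that calcium switches on. Calpain 1 and calpain 2 each pair a catalytic subunit (Capn1, Capn2) with the shared small subunit Capns1 and are held back by calpastatin (Cast), whereas calpain 3 (Capn3) is largely specific to skeletal muscle and binds the giant sarcomere protein titin. In muscle they are known for cutting proteins that anchor the sarcomere, a step that lets filaments be released for breakdown. Caspases cut after aspartate and carry out apoptosis: Casp8 starts the pathway from death receptors, Casp9 starts the pathway from mitochondria as part of the apoptosome, and Casp12 lies at the endoplasmic reticulum and is tied in rodents to stress in that organelle. These enzymes are mostly controlled after translation, by calcium, cleavage and inhibitors, and the present values are of RNA alone.

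None of the members differed between the groups at the thresholds used, a p below 0.05 by edgeR's quasi-likelihood test together with a fold change of at least 1.5. In CHEMO STD versus TUMOUR STD, 0 of the 7 members that passed the filter on low counts were called, where 2.38% of all 11716 genes tested were. In CHEMO FO versus CHEMO STD the count was 0 of 7, against 1.66% of all genes, and in CHEMO FO versus TUMOUR STD it was 0 of 7, against 3.60% of all genes. An unadjusted p below 0.05 was reached by 0 members in each comparison, where 6.50%, 4.51% and 9.04% of all genes reached it, and DESeq2 and limma's voom also called 0 members in each. The ranges of the groups overlapped for every member in every comparison, and 0.495%, 0.0683% and 0.324% of all genes had groups that did not overlap. The median log2 fold change of the 7 members was 0.0015 for the chemotherapy effect, -0.014 for the diet effect and 0.09 for both together, and that of all genes was -0.0016, -0.0060 and 0.0023. Over all genes the smallest Benjamini-Hochberg adjusted p was 0.652, 0.974 and 0.426 in the same order.

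Libraries held between 3020821 and 10857477 counts on named genes, and levels are given as CPM, a gene's counts relative to the library's total after TMM scaling. CHEMO STD replicates 1 and 2 were summed and counted as 1 sample, since a chi-square of their counts gave 2.23 per gene where the other 58 pairs within a group gave 13.7 to 255, which leaves 19 samples: 5 TUMOUR STD, 6 CHEMO STD and 8 CHEMO FO. Nothing in the labels tells whether the remaining libraries are separate animals, so p-values measure the spread between these samples. Markers of skeletal muscle fibres were at 121159 to 236238 CPM in sum, with none of the 6 genes found in the table at 0 in any sample, and those of fast fibres (94662 to 179680 CPM) far exceeded those of slow fibres (5799 to 16828 CPM). Several libraries stood apart in marker sums. CHEMO FO replicate 18 had the lowest muscle fibre sum and the highest macrophage sum, 819 CPM against a group median of 338 CPM. The macrophage receptor Cd163 made up 273 CPM of that sum. Cd68, of the same list, was at 4.91 CPM there and at most 4.89 CPM elsewhere. Ptprc, of the lymphocyte list, was at 11.5 CPM, within the range of the other samples. TUMOUR STD replicate 10 held 619 CPM of keratinocyte markers against a group median of 7.10 CPM, and CHEMO STD replicate 7 held 164 CPM of lymphocyte markers against 31.9 CPM. CHEMO FO replicate 16 held 131 CPM of keratinocyte markers against a group median of 4.12 CPM, with 1 of the 13 genes at 0. The larger shifts of a member's value without one of these libraries are given beside it. Apart from these, CHEMO STD replicates 1 and 2 together had their group's highest Schwann cell sum (470 CPM, median 143 CPM). Their fibroblast sum was also its highest (11796 CPM, median 3961 CPM). This sample was the highest of CHEMO STD in Capn1 and the lowest in Capn3, Cast and Casp8. TUMOUR STD replicate 12 had the highest fibroblast sum of all, 14049 CPM against a group median of 5645 CPM. In bulk muscle, fewer cells of a type and less RNA per cell cannot be told apart.

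Promoter sequence is shown for 3 members, Capn3, Capn2 and Casp12. Among members with a RefSeq promoter, these lay farthest from their group in CHEMO FO replicate 18. The measure was the log2 ratio to the median of the group's other samples, in either direction. Each sequence is the 250 bases before the gene's start in GRCr8, read 5′ to 3′ on the gene's own strand. Capitals mark a MEF2 motif (CTA and TAG with 4 bases between), a FOXO motif (GTAAACA, which lies on the opposite strand in Casp12) or a STAT motif (TTCNNNGAA). The Capn2 stretch holds none of these.
Capn3, chr3:127861340-127861589, plus strand: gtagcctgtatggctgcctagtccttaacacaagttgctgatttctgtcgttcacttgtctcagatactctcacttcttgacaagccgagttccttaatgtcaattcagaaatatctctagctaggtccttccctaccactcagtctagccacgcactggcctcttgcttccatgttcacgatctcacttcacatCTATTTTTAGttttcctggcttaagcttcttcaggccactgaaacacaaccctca
Capn2, chr13:96732626-96732875, minus strand: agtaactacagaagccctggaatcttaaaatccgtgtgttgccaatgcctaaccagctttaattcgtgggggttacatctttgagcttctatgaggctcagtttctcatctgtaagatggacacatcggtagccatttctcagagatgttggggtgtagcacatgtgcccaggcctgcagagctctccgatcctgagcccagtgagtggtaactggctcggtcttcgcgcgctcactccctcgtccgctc
Casp12, chr8:10926938-10927187, plus strand: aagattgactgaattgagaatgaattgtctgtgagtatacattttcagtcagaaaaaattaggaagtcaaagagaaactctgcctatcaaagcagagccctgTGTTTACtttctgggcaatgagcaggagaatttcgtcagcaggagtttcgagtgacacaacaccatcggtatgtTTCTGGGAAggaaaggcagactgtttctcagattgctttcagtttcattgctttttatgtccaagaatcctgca
The MEF2 letters of Capn3 begin 55 bases before the start, and 3.43% of 27457 rat promoters of the same length hold such a match on either strand. In Casp12 the FOXO match lies 148 bases and the STAT match 74 bases before the start, motifs found in 3.25% and 7.52% of promoters. Capn2 holds 3 E-box matches (CANNTG, left in lower case), of which 2 overlap each other. Capn3 holds 1, which begins 198 bases before the start, and 65.2% of promoters hold at least 1. The GC box (GGGCGG, in 32.4% of promoters) was found in Casp9, with 3 matches, and in Capns1, with 2. In the 6 members with a sequence, no letters matching the TATA box (TATAAA, 13.1%), the ER stress element (CCAAT and CCACG with 9 bases between, 0.0765%) or the cAMP response element (TGACGTCA, 1.7%) were found. A match is a description of letters, and neither a match nor its absence shows whether a factor binds.

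Capn3 encodes the muscle calpain, and its coefficient of variation was the lowest of the tested members in each of the 3 groups (5.49%, 9.48% and 16.3% in TUMOUR STD, CHEMO STD and CHEMO FO). The next lowest were close in 2 groups, Capn2 in TUMOUR STD (5.50%) and Casp9 in CHEMO FO (16.8%). In TUMOUR STD Capn3 stood at 271, 260, 275, 254 and 239 CPM in replicates 8 to 12. The CHEMO STD samples ran from 218 through a median of 272 to 281 CPM, and the CHEMO FO samples from 151 through 259 to 271 CPM. All groups overlapped, and 7 of the 8 CHEMO FO samples lay between 231 and 271 CPM. The means were 260 ± 14.3 CPM (SD, n = 5), 260 ± 24.7 CPM (n = 6) and 245 ± 39.8 CPM (n = 8) in TUMOUR STD, CHEMO STD and CHEMO FO. For the chemotherapy effect the log2 fold change was 0.0015 (SE 0.13), with an adjusted p of 0.998 by edgeR's quasi-likelihood test and a 95% interval of 0.829 to 1.21 on the fold scale. For the diet effect it was -0.09 (SE 0.12, adjusted p = 0.9746), an interval of 0.794 to 1.11-fold, and without CHEMO FO replicate 18 it was -0.0079. CHEMO FO versus TUMOUR STD gave -0.09 (SE 0.12, adjusted p = 0.846), and 0.00095 without that library. Changes of Capn3 RNA beyond those bounds lay outside the intervals, and smaller ones were not detectable with these samples.

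**Figure D1:**
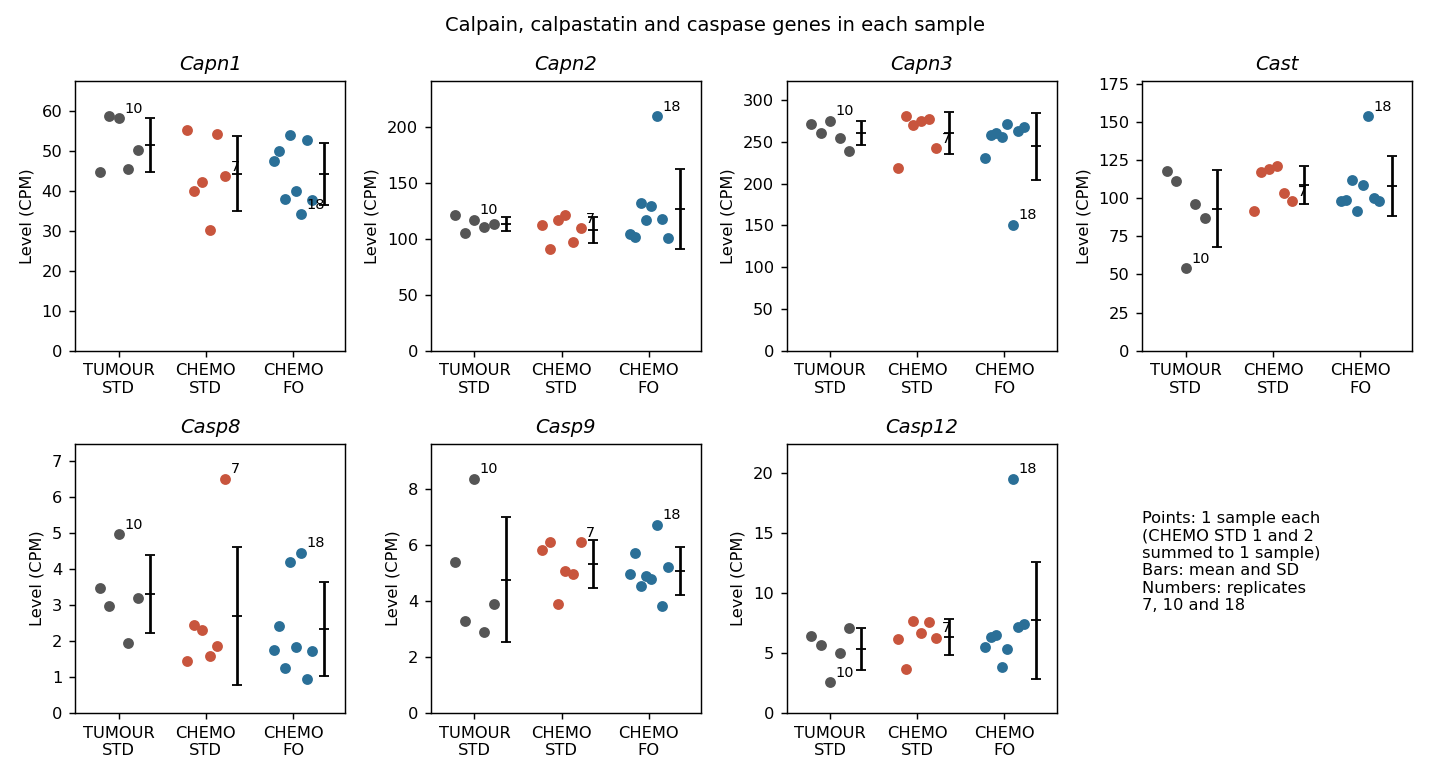
Level of each member in every sample, in CPM on a linear axis from 0, by group; points are samples, bars are the mean and SD, and numbers mark replicates 7, 10 and 18. The groups overlap for every gene, and CHEMO FO replicate 18 is highest for Casp12 (19.5 CPM), Capn2 (209 CPM) and Cast (154 CPM) and lowest for Capn3 (151 CPM).

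Capn1, the catalytic subunit of calpain 1, read 44.8, 58.8, 58.3, 45.6 and 50.2 CPM in TUMOUR STD replicates 8 to 12. It ran from 30.2 through a median of 43.0 to 55.2 CPM in CHEMO STD and from 34.2 through 43.8 to 54.1 CPM in CHEMO FO. The lowest values were in chemotherapy samples, yet the groups overlapped over most of their range. Its mean was 51.5 ± 6.71 CPM in TUMOUR STD (n = 5), 44.3 ± 9.40 CPM in CHEMO STD (n = 6) and 44.3 ± 7.71 CPM in CHEMO FO (n = 8). The log2 fold change was -0.21 (SE 0.16, adjusted p = 0.741) for chemotherapy and -0.014 (SE 0.14, adjusted p = 0.999) for diet. CHEMO FO versus TUMOUR STD gave -0.23 (SE 0.15, adjusted p = 0.630), an interval of 0.693 to 1.06-fold.

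Capn2, the catalytic subunit of calpain 2, read 121, 105, 117, 110 and 113 CPM in TUMOUR STD. Its range was 90.6 to 121 CPM with a median of 111 CPM in CHEMO STD, and 101 to 209 CPM with a median of 117 CPM in CHEMO FO. Only CHEMO FO replicate 18 went beyond 132 CPM. The means were 113 ± 6.23, 108 ± 11.9 and 126 ± 35.6 CPM (SD, n = 5, 6 and 8). The chemotherapy effect was -0.07 on the log2 scale (SE 0.16, adjusted p = 0.916). The diet effect was 0.23 (SE 0.14, adjusted p = 0.974), and 0.09 without replicate 18. CHEMO FO versus TUMOUR STD gave 0.16 (SE 0.15, adjusted p = 0.751), and 0.03 without that library.

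Cast encodes calpastatin, the inhibitor of both of these calpains. TUMOUR STD held the widest spread, at 118, 112, 53.9, 96.1 and 86.8 CPM. CHEMO STD ran from 91.4 through a median of 110 to 121 CPM, and CHEMO FO from 91.8 through 99.7 to 154 CPM. TUMOUR STD replicate 10 lay well below all other samples, and without it the lowest values of the groups were 86.8, 91.4 and 91.8 CPM. The mean was 93.2 ± 25.1 CPM in TUMOUR STD, 108 ± 12.4 CPM in CHEMO STD and 108 ± 19.7 CPM in CHEMO FO. The log2 fold change for chemotherapy was 0.22 (SE 0.17, adjusted p = 0.743) and became 0.07 without replicate 10. For diet it was -0.0039 (SE 0.15, adjusted p = 1.00), an interval of 0.805 to 1.24-fold. CHEMO FO versus TUMOUR STD gave 0.21 (SE 0.16, adjusted p = 0.682), 0.07 when TUMOUR STD replicate 10 was left out, 0.13 when CHEMO FO replicate 18 was, and -0.02 with both left out.

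Capns1, the small subunit that calpains 1 and 2 share, was listed at 0 counts in all 20 libraries. A count of 0 allows at most 3 counts, which is 0.276 to 0.993 CPM in single libraries and 0.0235 CPM over all 127443474 counts. This limit covers counting error on the row as annotated, and 25.4% of the 22242 rows marked as protein coding were also at 0 in every library, among them Casp6 and Capn9. Whether the transcript was missing from the muscle or its row received no reads under this annotation was not tested, and no group difference was computed for it.

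Casp8, the initiator of the death receptor pathway, was sparse, with 4 to 51 counts in a sample. TUMOUR STD read 3.47, 2.98, 4.95, 1.94 and 3.19 CPM. CHEMO STD ran from 1.46 through a median of 2.09 to 6.49 CPM, and CHEMO FO from 0.960 through 1.79 to 4.45 CPM. Of the CHEMO STD samples 5 lay between 1.46 and 2.45 CPM, and replicate 7 held 6.49 CPM, 3.49 times the median of the others. Replicate 7 is also the library with the highest lymphocyte sum, with none of the 12 lymphocyte markers at 0, and their part in its Casp8 level was not tested. The means were 3.31 ± 1.09, 2.69 ± 1.9 and 2.33 ± 1.30 CPM (SD, n = 5, 6 and 8). The chemotherapy effect was -0.33 (log2, SE 0.41, adjusted p = 0.838). It was -0.80 without CHEMO STD replicate 7, which passed both thresholds at an unadjusted p of 0.0440, and -0.13 without TUMOUR STD replicate 10. Without CHEMO STD replicates 1 and 2 it was -0.15. The diet effect was -0.17 (SE 0.38, adjusted p = 0.989) and turned to 0.31 without replicate 7. With CHEMO STD replicates 1 and 2 left out it was -0.33. It was -0.43 without CHEMO FO replicate 18 and -0.28 without CHEMO FO replicate 16, the samples with the highest Casp8 of that group (4.45 and 4.19 CPM). CHEMO FO versus TUMOUR STD gave -0.50 (SE 0.38, adjusted p = 0.697), with an interval of 0.409 to 1.23-fold. That value was -0.76 without CHEMO FO replicate 18 (unadjusted p = 0.0604), -0.61 without CHEMO FO replicate 16 and -0.29 without TUMOUR STD replicate 10.

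Casp9, the initiator of the mitochondrial pathway, read 5.39, 3.28, 8.35, 2.91 and 3.90 CPM in TUMOUR STD. Its range was 3.89 to 6.12 CPM in CHEMO STD, with a median of 5.45 CPM, and 3.84 to 6.73 CPM in CHEMO FO, with a median of 4.93 CPM. The range of TUMOUR STD enclosed both other groups, because replicate 10 was the highest and replicate 11 the lowest of all samples. The means were 4.77 ± 2.22, 5.33 ± 0.861 and 5.09 ± 0.852 CPM (SD, n = 5, 6 and 8). The log2 fold changes were 0.14 (SE 0.25, adjusted p = 0.893) for chemotherapy, -0.04 (SE 0.22, adjusted p = 0.996) for diet and 0.09 (SE 0.23, adjusted p = 0.928) for both together. Without TUMOUR STD replicate 10 the chemotherapy value was 0.46 (unadjusted p = 0.0552) and CHEMO FO versus TUMOUR STD gave 0.42 (unadjusted p = 0.0690). Without CHEMO FO replicate 18 the diet effect was -0.12 and CHEMO FO versus TUMOUR STD gave 0.02. With TUMOUR STD replicate 10 and CHEMO FO replicate 18 both left out the chemotherapy value was 0.47, at an unadjusted p of 0.0457 and below 1.5-fold.

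Casp12, the endoplasmic reticulum caspase, gave the highest fold change of the members. TUMOUR STD read 6.43, 5.67, 2.62, 5.02 and 7.10 CPM. CHEMO STD ran from 3.67 through a median of 6.49 to 7.67 CPM, and CHEMO FO from 3.84 through 6.48 to 19.5 CPM. The medians of the 2 chemotherapy groups were alike, and 7 of the 8 CHEMO FO samples lay between 3.84 and 7.49 CPM, within or near the ranges of the others. The means were 5.37 ± 1.72, 6.36 ± 1.47 and 7.74 ± 4.91 CPM (SD, n = 5, 6 and 8). The log2 fold change was 0.28 (SE 0.34, adjusted p = 0.835) for chemotherapy and 0.32 (SE 0.30, adjusted p = 0.974) for diet. Without TUMOUR STD replicate 10 the chemotherapy value was 0.09. CHEMO FO versus TUMOUR STD gave 0.60 (SE 0.32, unadjusted p = 0.0709, adjusted p = 0.563). Without CHEMO FO replicate 18 the last value was 0.22 and the diet effect was -0.07. With TUMOUR STD replicate 10 also left out, CHEMO FO versus TUMOUR STD gave 0.03. Leaving out TUMOUR STD replicate 12, CHEMO FO replicate 16 or CHEMO FO replicate 17 instead raised it to 0.73, 0.69 and 0.68, each past both thresholds.

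**Figure D2:**
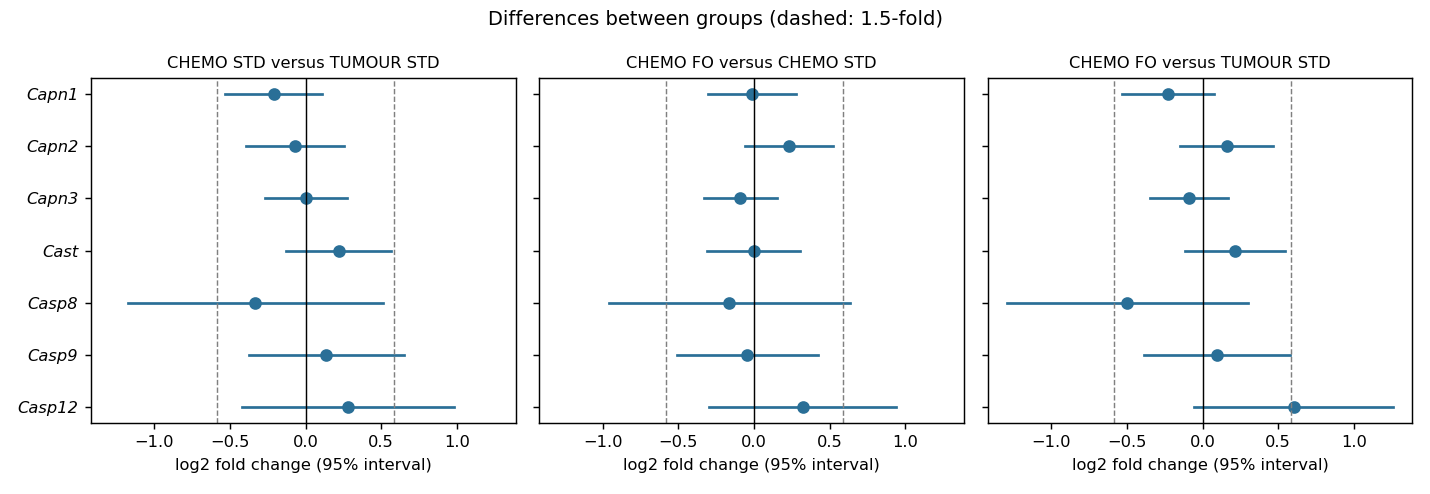
Log2 fold change of each tested member in the 3 comparisons by edgeR's quasi-likelihood fit (points), with 95% intervals (lines) and dashed lines at 1.5-fold. Every interval crosses 0, and the intervals of Capn3 (0.829 to 1.21-fold for chemotherapy) are far narrower than those of Casp8 (0.443 to 1.43-fold).

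Library 18 of CHEMO FO was the highest or the lowest sample of its group in every tested member. Casp12 was 3.06 times, Casp8 2.54 times, Capn2 1.79 times, Cast 1.55 times and Casp9 1.38 times the median of the other 7 samples, each above all of them. Capn3, at 0.579 times, and Capn1, at 0.720 times, lay below all of them. The ER stress list (the unfolded protein response of the endoplasmic reticulum) summed to 2550 CPM in this library, where the group median was 1284 CPM, and 6 of its 12 genes were higher there than in any other sample. Among these were the chaperones Hspa5 (584 CPM, at most 253 CPM elsewhere) and Hsp90b1 (339 CPM, at most 124 CPM elsewhere) and the transcription factor Atf4 (719 CPM, at most 316 CPM elsewhere). Ddit3, the factor CHOP of the same response, was not among them, at 11.4 CPM against a median of 14.6 CPM elsewhere. The fast myosin Myh4 stood at 61322 CPM, below all other samples, and Cd163 stood at 273 CPM, at most 65.4 CPM elsewhere. The part of these genes in the Casp12, Capn2, Cast and Capn3 values was not tested.

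TUMOUR STD replicate 10 differed in another set of members. Its Cast (0.519 times the median of the other TUMOUR STD samples) and Casp12 (0.434 times) were the lowest of the group, and its Casp9 (2.33 times) and Casp8 (1.60 times) the highest. Capn2 (1.05 times) and Capn3 (1.07 times) stayed close to the others. Its keratinocyte sum was 619 CPM, with 0 of the 13 genes in the table at 0. Its sums of Schwann cell (492 CPM, group median 151 CPM) and adipocyte markers (495 CPM, median 319 CPM) were also the highest of the group. So was its smooth muscle sum (7186 CPM, median 3613 CPM). That sum is mostly Des, also listed with the sarcomere partners, at a mean of 4539 CPM in TUMOUR STD. The muscle fibre, slow fibre, endothelial, macrophage, death receptor and ER stress sums were likewise highest there, and the mitochondrial apoptosis sum was lowest. Fibroblast markers stood at 13438 CPM there (median 5645 CPM). The part of the genes on these lists in the Cast, Casp12, Casp9 and Casp8 values was not tested.

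**Figure D3:**
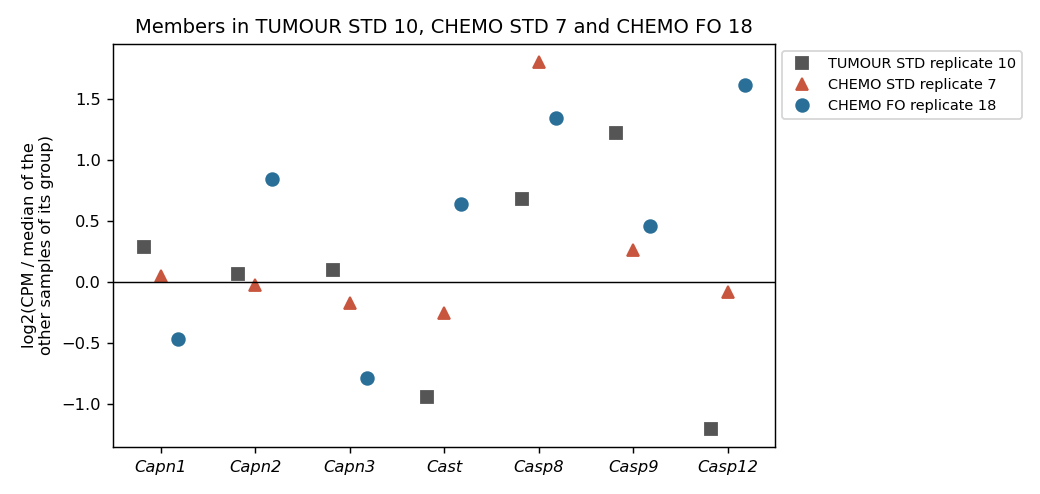
CPM of each member in TUMOUR STD replicate 10, CHEMO STD replicate 7 and CHEMO FO replicate 18, as the log2 of its ratio to the median of the other samples of the same group. CHEMO FO replicate 18 is up to 3.06 times that median (Casp12) and down to 0.579 times (Capn3), TUMOUR STD replicate 10 is low for Cast and Casp12, and CHEMO STD replicate 7 departs mainly in Casp8 (3.49 times).

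Across the 19 samples, levels were correlated for all 21 pairs of the 7 detected members after centring log2 levels within each group. The labels name no batch within which to repeat this. Capn1 and Cast ran against each other (Pearson r = -0.56, permutation p = 0.00213, adjusted p = 0.0361; Spearman rho = -0.58, permutation p = 0.00978, adjusted p = 0.103). With the 2 samples farthest in Capn1 left out, r was -0.55, and within TUMOUR STD, CHEMO STD and CHEMO FO it was -0.49, -0.77 and -0.74. Casp8 and Casp9 ran in the same direction (r = 0.56, permutation p = 0.00344, adjusted p = 0.0361; rho = 0.63, permutation p = 0.00413, adjusted p = 0.0867). Leaving out the 2 samples farthest in Casp8 gave r = 0.52, and the values within the groups were 0.92, 0.31 and 0.77. By Pearson's r 2 of 21 pairs passed the adjusted threshold and by Spearman's rho 0 did, with 7 past an unadjusted p of 0.05 by Pearson's r. Leaving out 1 library at a time gave 0 to 4 such pairs and most often 0, so neither relation held under every choice of samples. Capn2 and Capn3 had r = -0.72 (permutation p = 0.0653, adjusted p = 0.171; rho = -0.35, permutation p = 0.173, adjusted p = 0.470), which was -0.07 without the 2 farthest samples and so rested on them. CPM are shares of a library, so a large change in abundant genes moves all other levels in common.

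**Figure D4:**
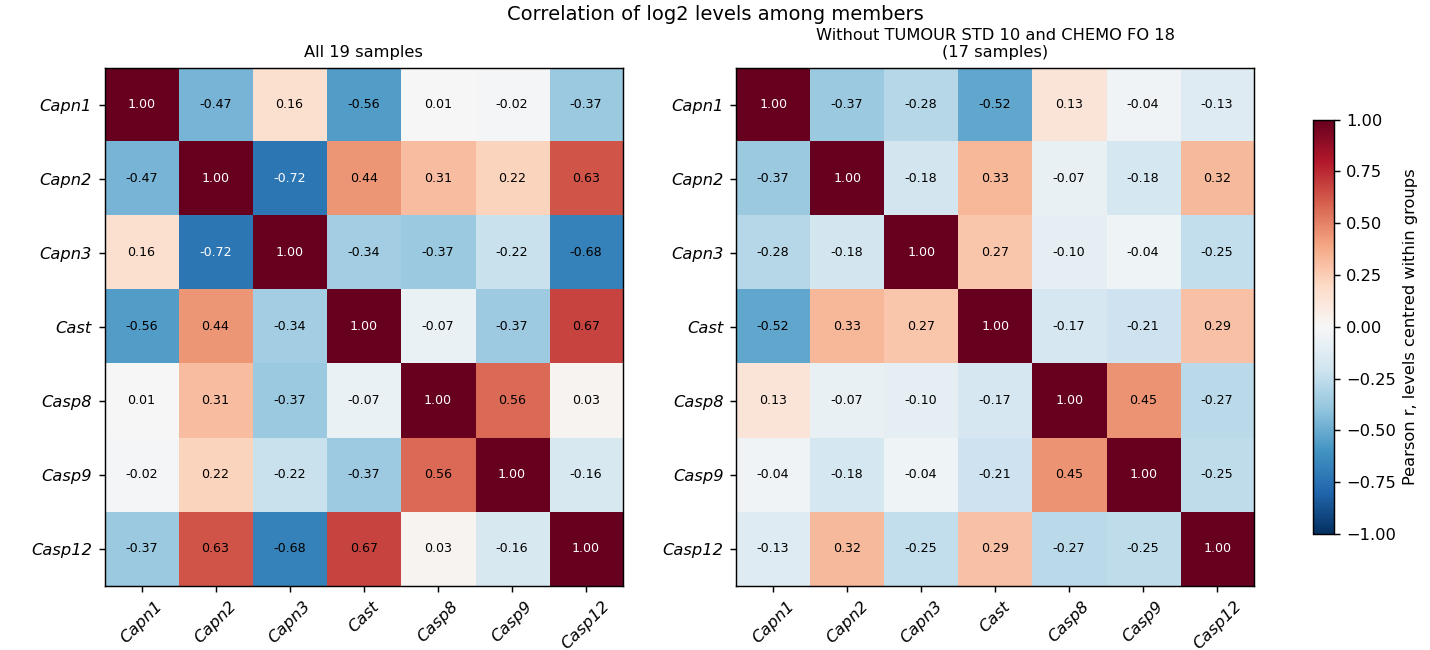
Pearson r between log2 levels of the 7 detected members, centred within groups, over all 19 samples (left) and over the 17 samples without TUMOUR STD replicate 10 and CHEMO FO replicate 18 (right). Capn2 with Capn3 goes from -0.72 to -0.18 and Cast with Casp12 from 0.67 to 0.29, while Capn1 with Cast is -0.56 and -0.52.

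The genes most like each member across the 19 samples, without centring, were found by Pearson's r among 11708 other tested genes. Capn1 was closest to Gpc6 and Obsl1 (both r = 0.89). Capn2 was closest to Pnpla7 (0.92) and Ppp1r15a (0.91), and Capn3 to Map2k6 (0.91) and Klhl31 (0.89). The values for Capn3 dropped to 0.48 and 0.42 without CHEMO FO replicate 18, and those for Capn2 to 0.74 and 0.65. Cast was closest to Wapl (0.95) and LOC499235 (0.94), and these were 0.94 and 0.92 without that library. Casp8 was closest to Arhgap4 and Fzd3 (both 0.78), Casp9 to Tlr2 (0.71) and Apod (0.70), and Casp12 to Cystm1 and Chmp2b (both 0.86). Without CHEMO FO replicate 18 those of Casp12 were 0.69 and 0.82. These are the highest of many values and describe likeness of pattern only.

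Other genes of the same pathways were read from lists. Of 6 other calpains tested, 0 were called for chemotherapy or diet, and 1 was called for CHEMO FO versus TUMOUR STD. This was Capn6, a calpain without the catalytic cysteine, at 6.95 CPM in CHEMO FO and 12.7 CPM in TUMOUR STD (log2 fold change -0.88, SE 0.32, unadjusted p = 0.0116, adjusted p = 0.486). Capn6 was no longer past the threshold with TUMOUR STD replicate 10 and CHEMO FO replicate 18 left out (-0.68, unadjusted p = 0.0609). Of 5 other caspases tested, 0 were called in any comparison. Casp2 had their smallest p for diet (-0.49, unadjusted p = 0.00982, below 1.5-fold, adjusted p = 0.974) and for both together (-0.38, unadjusted p = 0.0465, adjusted p = 0.551).

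The list of calpain substrates and partners holds genes for proteins at the sarcomere and the membrane. Of 15 tested, 13 had a negative log2 fold change in CHEMO STD versus TUMOUR STD. The median of the 15 was -0.21, with 2 called lower and 0 higher. Of all genes tested, 49.7% were higher and 2.38% were called in either direction, and the median was -0.0016. Flnc, the Z-disc crosslinker filamin C, was at 1538 CPM against 2652 CPM (-0.79, SE 0.20, unadjusted p = 0.000817, adjusted p = 0.719) and remained called with any 1 library left out. Pdlim1, a Z-disc adaptor, was at 46.0 against 71.4 CPM (-0.64, SE 0.26, unadjusted p = 0.0226, adjusted p = 0.719), and was no longer called when TUMOUR STD replicate 10 (-0.45) or, separately, CHEMO STD replicate 6 was left out. In CHEMO FO versus CHEMO STD, 11 of the 15 were higher and 4 lower, with 0 called, a median of 0.13 and 2 at an unadjusted p below 0.05. These comparisons share the CHEMO STD samples. In CHEMO FO versus TUMOUR STD 0 were called, 9 were lower and 6 higher, and the median was -0.10. Slow fibre markers were also lower: 10 of 10 had a negative log2 fold change for chemotherapy on the standard diet, with 2 called (Myh7 and Atp2a2). Their summed level ran from 8510 to 16828 CPM in TUMOUR STD and from 6966 to 11521 CPM in CHEMO STD. Their part in the Flnc and Pdlim1 values was not tested.

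The apoptosis lists held few calls. Among 9 death receptor genes 0 were called, with the smallest p at Tnfsf10, the ligand TRAIL, for chemotherapy (-0.30, unadjusted p = 0.126), at Cflar, the inhibitor of Casp8, for diet (-0.25, unadjusted p = 0.0935), and at Ripk3, a kinase of necroptosis, for CHEMO FO versus TUMOUR STD (0.84, unadjusted p = 0.122, and -0.11 without CHEMO FO replicate 18). Among 18 genes of the mitochondrial pathway, 1 was called: Dffb, the nuclease that fragments DNA in apoptosis, was at 2.72 CPM in CHEMO FO and 4.58 CPM in TUMOUR STD (-0.72, SE 0.28, unadjusted p = 0.0182, adjusted p = 0.503), and it was not called when TUMOUR STD replicate 10 (-0.59) or, separately, CHEMO FO replicate 15 was left out. Among 4 inhibitors of apoptosis 0 were called, with the smallest p at Birc6 for chemotherapy (-0.18, unadjusted p = 0.187) and diet (0.18, unadjusted p = 0.146) and at Birc2 for both together (0.19, unadjusted p = 0.254).

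Among 12 ER stress genes 0 were called. Their median log2 fold change was -0.07 for chemotherapy, with 3 higher and 9 lower, and 0.16 for diet, with 10 higher and 2 lower. Of all genes tested, 49.7% were higher for chemotherapy and 48.7% for diet. CHEMO FO replicate 18 was above every other sample in 6 of the 12 genes, and these counts of direction were not recomputed without it. The smallest p belonged to Ern1, the sensor IRE1, for chemotherapy (-0.29, unadjusted p = 0.0654) and to Atf4 for diet (0.43, unadjusted p = 0.0283, adjusted p = 0.974). Atf4 also had the smallest for CHEMO FO versus TUMOUR STD (0.35, unadjusted p = 0.0816). Without TUMOUR STD replicate 10 and CHEMO FO replicate 18 the diet value of Atf4 was 0.18.

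Markers of other cells are given because muscle tissue holds them. In CHEMO STD versus TUMOUR STD, calls were made among smooth muscle markers (4 lower of 7 tested) and keratinocyte markers (Dsp lower, -3.47, and -0.22 without TUMOUR STD replicate 10). Of 12 macrophage markers 8 were higher and 4 lower, with 1 called (Lyz2 higher). Of 2 lymphocyte markers tested 1 was called (Ptprc higher), and the other, Cd4, was at -0.05. Ptprc and Lyz2 lost their calls without CHEMO STD replicate 7. The smooth muscle genes were Myh11, Acta2, Tagln and Mylk, and Mylk was not called when CHEMO STD replicate 7 or, separately, TUMOUR STD replicate 10 was left out. In CHEMO FO versus CHEMO STD, the Schwann cell markers Mbp and Prx, together with Lyz2 and Ptprc, were called lower. Of the 12 macrophage markers 4 were higher and 8 lower for diet. In CHEMO FO versus TUMOUR STD the same 4 smooth muscle genes, Col1a1, Prx, Dsp and Myh7 were called lower. Cd163 was called higher, at 1.22 and at 0.35 without CHEMO FO replicate 18. In the same comparison 7 macrophage markers were higher and 5 lower. With any 1 library left out, the calls of Myh7, Myh11, Acta2 and Tagln for chemotherapy and of Mbp for diet remained. So did those of Myh11 and Acta2 for both together, and every other marker call named here was lost at least once. CHEMO STD replicates 1 and 2 were left out singly in these runs, so none of them removed their joint sample. Over the other alternatives, which include leaving out both of these replicates, Mbp for diet ran from -1.36 to -0.44 and lost its call in 2. Endothelial, adipocyte, fast fibre and general muscle fibre lists had 0 calls in every comparison. The part of these cells in the levels of the calpain and caspase genes was not tested.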

How the data were processed

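Gastrocnemius RNA of 20 libraries in 3 groups was sequenced after rRNA depletion with a strand-marking kit. The authors trimmed reads (Trim Galore 0.4.1, FastQC 0.11.4, CASAVA 1.9 for base calling), aligned them to the rat genome Rnor 6 with TopHat2 2.0.10 and Bowtie2, and deposited unnormalised counts per gene. How strand and multimapping were set when counting is not stated in these sources, so reads of overlapping genes, antisense genes or close paralogues may have been shared or lost. Of 32883 rows, 388 carry no gene name (0.102% to 0.272% of a library's counts) and were left out.

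The tests used edgeR 4.0.16 under R 4.3.3: default low-count filter (minimum count 10, total 15), TMM scaling and the quasi-likelihood test over all 3 groups. Intervals are at 95%. The procedure was checked on simulated counts. DESeq2 1.42.0, limma 3.58.1 (voom with quality weights), other scalings, other filters and left-out libraries were alternatives. The study's thresholds (unadjusted p below 0.05, 1.5-fold) define a call, and Benjamini-Hochberg values cover all genes tested. Correlations used 100000 permutations, two-sided, on log2 CPM with a prior count of 2. Motifs were searched on both strands of RefSeq promoters (GRCr8), which were at hand for 6 of 8 members, and these coordinates are not those of the count table's build. Named genes were all members, list genes past both thresholds or else the list's smallest p, and the 2 genes most like each member; a few list genes that this rule names are not reported here. The members and lists were chosen with earlier results of these data known. Leaving out TUMOUR STD replicate 10 and CHEMO FO replicate 18 together was chosen after seeing the data.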

Additional observations from a re-analysis of the deposited data

Results flagged for a closer look

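Of 21 groups of values (7 members in 3 groups), 6 held a sample whose gap to its nearest neighbour, as a share of the group's range, exceeded Dixon's 95% critical value, where chance flags about 1 in 20. The same library gave 4 of them. In CHEMO FO replicate 18, Casp12 was at 19.5 CPM where the next sample was at 7.49 CPM (gap 0.768 of the range), Capn2 at 209 CPM where the next was at 132 CPM (0.714), Cast at 154 CPM where the next was at 112 CPM (0.670), and Capn3 at 151 CPM where the next above was at 231 CPM (0.667). In CHEMO STD replicate 7, Casp8 was at 6.49 CPM where the next sample was at 2.45 CPM (0.804). In CHEMO STD replicate 3, Casp12 was the lowest at 3.67 CPM where the next was at 6.21 CPM (0.634), from 12 counts.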

How the results depend on the processing

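Of 630 recomputed values of single members, 587 kept their direction and their side of the thresholds, 4 passed both thresholds and 39 changed sign, all of the last at log2 values of at most 0.31 in size. Members called numbered 0 under every alternative that left out no single library, and 0 to 1 (chemotherapy), 0 to 0 (diet) and 0 to 1 (CHEMO FO versus TUMOUR STD) with 1 library left out. For chemotherapy, Capn3 turned to -0.027 with CHEMO STD replicates 1 and 2 kept apart and to -0.0016 without the low-count filter, and ran from -0.023 to 0.026 over left-out libraries. For diet, Cast turned to 0.036 and 0.0050 in the same settings (-0.091 to 0.029 over left-out libraries). Also for diet, Capn1 turned to 0.061 without that pair, 0.074 with voom and 0.025 without TUMOUR STD replicate 10 and CHEMO FO replicate 18 (-0.098 to 0.058), and Casp12 to -0.0060 with voom and -0.074 without those 2 libraries (-0.069 to 0.41). Casp8 ran from -0.43 to 0.31 and Casp9 from -0.13 to 0.0033 over left-out libraries. For CHEMO FO versus TUMOUR STD, leaving out the same 2 libraries turned Capn3 to 0.014 (-0.11 to 0.00095 over single ones) and Cast to -0.022, and Casp9 ran from -0.035 to 0.42. Ripk3 turned to -0.24 with voom and -0.20 without the 2 libraries (-0.11 to 1.08), and Dsp to 0.70 without them (-3.66 to 0.64). The cause was not tested. Pairs of members past the adjusted threshold numbered 1 without the CHEMO STD pair, 0 without centring, 1 without the 2 libraries, and 0 to 4 with 1 library left out. No paired analysis was run, since the paper states that rats were assigned at random to separate arms. The labels pair no samples between groups. Depth limits Casp8, Casp9 and Casp12 most, at 4 to 215 counts in a sample.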

Other observations

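Ratios of counts between members need no library scaling, but they are not corrected for transcript length and are comparable only between samples. Cast to Capn1, the inhibitor over the catalytic subunit of calpain 1, was 1.86 ± 0.620 in TUMOUR STD (SD, n = 5), 2.59 ± 0.851 in CHEMO STD (n = 6) and 2.55 ± 0.903 in CHEMO FO (n = 8). The lowest value was 0.925 in TUMOUR STD replicate 10 and the highest 4.5 in CHEMO FO replicate 18, and the groups overlapped. Cast to Capn2 was 0.827 ± 0.233, 1.02 ± 0.165 and 0.871 ± 0.0879 in the same order. Casp8 to Casp9, the death receptor over the mitochondrial initiator, was 0.726 ± 0.132 in TUMOUR STD, where all 5 samples lay between 0.593 and 0.909. It was 0.4998 ± 0.300 in CHEMO STD and 0.442 ± 0.210 in CHEMO FO, with lowest values of 0.252 and 0.25 and highest of 1.06 and 0.857. Casp12 to Casp9 was 1.36 ± 0.632, 1.25 ± 0.472 and 1.47 ± 0.662, running from 0.314 in TUMOUR STD replicate 10 to 2.91 in CHEMO FO replicate 18. These ratios are descriptions with no test.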
